A study of Mus musculus with 8 samples.

Results

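The respiratory chain is described here through its nuclear-encoded subunits, taken by their gene symbols. The symbols follow the names of complex I (Nduf), complex II (Sdh), complex III (Uqcr), complex IV (Cox5 to Cox8) and complex V (Atp5) subunits. Cytochrome c1 (Cyc1) and cytochrome c (Cycs) were added, and the Cox4 genes fall outside these patterns. Of 91 mouse symbols that fit these patterns, 83 had a matched probe, and 81 of those were bright enough to be tested, among 17093 features tested in all. Cox7b2 and Cox8c were not well above background on any of the 8 arrays and were not tested. Where a gene had several probes, its brightest probe, averaged over the arrays, stood for it. The rule picks genes by name and not by a measured difference, but it was set with earlier results of these data known.

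The series, on miR-127-3p and the senescence of myofibroblasts, used dermal fibroblasts of newborn C57BL/6 mice. Cultures received either control oligonucleotides (4 samples, numbered 1, 3, 6 and 8) or a miR-127-3p mimic (4 samples, numbered 2, 4, 5 and 7), and each sample's total RNA was read in Cy3 on its own Agilent array. A mimic is a synthetic RNA duplex that loads the mature microRNA sequence into the silencing machinery. For control samples 3 and 6 the treatment field names both oligonucleotides, and their group was taken from the sample titles. No label says whether the samples of a group came from separate cultures or animals, so the p-values measure the spread between these samples, which may be technical.

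Complexes I and II pass electrons from NADH and succinate to coenzyme Q, complex III passes them on to cytochrome c, and complex IV hands them to oxygen. The proton gradient built by complexes I, III and IV drives complex V, the ATP synthase, whose membrane ring of c subunits turns inside a catalytic head. Most subunits are made from nuclear genes and imported, and the remaining subunits, encoded by mitochondrial DNA, are not analysed here. A microRNA pairs with messenger RNAs mainly through its seed, so the mature sequence introduced by the mimic is shown as RefSeq gives it for GRCm38.p6 (chr12:109592888-109592909, plus strand, 22 bases), 5′ to 3′, with the seed at bases 2 to 8 in capitals.
mmu-miR-127-3p: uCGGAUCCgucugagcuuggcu
Matches to this seed in the subunit transcripts were not analysed here.

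All levels below are log2 signals relative to the 75th percentile of the same array, so they are relative and not absolute amounts. Control values are listed in the order of samples 1, 3, 6 and 8 and mimic values in the order of samples 2, 4, 5 and 7. A gene was called when its Benjamini-Hochberg adjusted p over all features was under 0.05 in limma. Between 20756 and 23472 probes were well above background per array, and all arrays lay on 1 slide, with samples 1 to 4 in row 1 and samples 5 to 8 in row 2. The 10 fibroblast markers were all measured, with a summed linear signal of 1685 to 1970 times the 75th percentile on control arrays and 1803 to 1972 times on mimic arrays. Of these 10, Col3a1 (-1.07) and Pdgfra (-0.97) fell and Dcn rose (1.18), so 30.0% were called, beside 34.2% of all features. Macrophage markers differed between the groups: 8 of 9 tested were called higher, beside 15.9% of all features. For 6 of the 9 the groups did not overlap, beside 15.1% of all features that were higher without overlap. Summed signals were 36.1 to 45.4 in control and 63.9 to 74.9 in mimic samples. Itgam carried most of these sums, at log2 levels of 4.97, 5.10, 5.05 and 4.62 in control and 5.09, 5.37, 5.71 and 5.60 in mimic samples. The Itgam groups overlapped, and Ptprc was not above background on any array. The part of these marker changes in the results below was not tested. In RNA from whole cultures, fewer cells of a type and less RNA per cell cannot be told apart.

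Most respiratory chain subunits were not called. Of the 81 tested, 10 fell and 4 rose with the mimic, and 67 passed in neither direction. Over all features, 34.2% were called, 18.3% lower and 15.9% higher, against 17.3% of the subunits in either direction. The control and mimic arrays did not overlap for 14 subunits that were lower and 6 that were higher with the mimic, beside 19.0% and 15.1% of all features. The fitted log2 changes ran from -0.99 (Atp5g2) to 1.09 (Ndufa4l2, not called and above background on only 1 control and 3 mimic arrays), with a median of -0.04 over the subunits and 0.02 over all features. The highest change of a called subunit was 0.74 (Cox6b2).

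For most uncalled subunits the fitted changes were small with narrow intervals. The 95% interval of the fold change lay within 1.5-fold in both directions for 63 of the 67 uncalled subunits, and for 7595 of the 11242 uncalled features in all (67.6%). The intervals that reached further belonged to Ndufa8 (-0.65 to -0.07), Ndufa4l2 (0.09 to 2.08), Cox6a2 (-1.66 to 0.49) and Cox8b (-1.41 to 2.39). The median standard error of the log2 change was 0.0956 over subunits and 0.122 over all features. Subunit probes were also brighter, with a median level of 5.69 against 1.31 over all features. The part of signal level in the narrow intervals was not tested. No called subunit reached a 2-fold change, as 7.45% of all features did, 3 of those called lower passed 1.5-fold (Atp5g2, Ndufb8 and Ndufs3), and so did 1 of those called higher (Cox6b2). Of all features, 8.90% were called lower and 8.41% called higher by at least 1.5-fold.

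**Figure D1:**
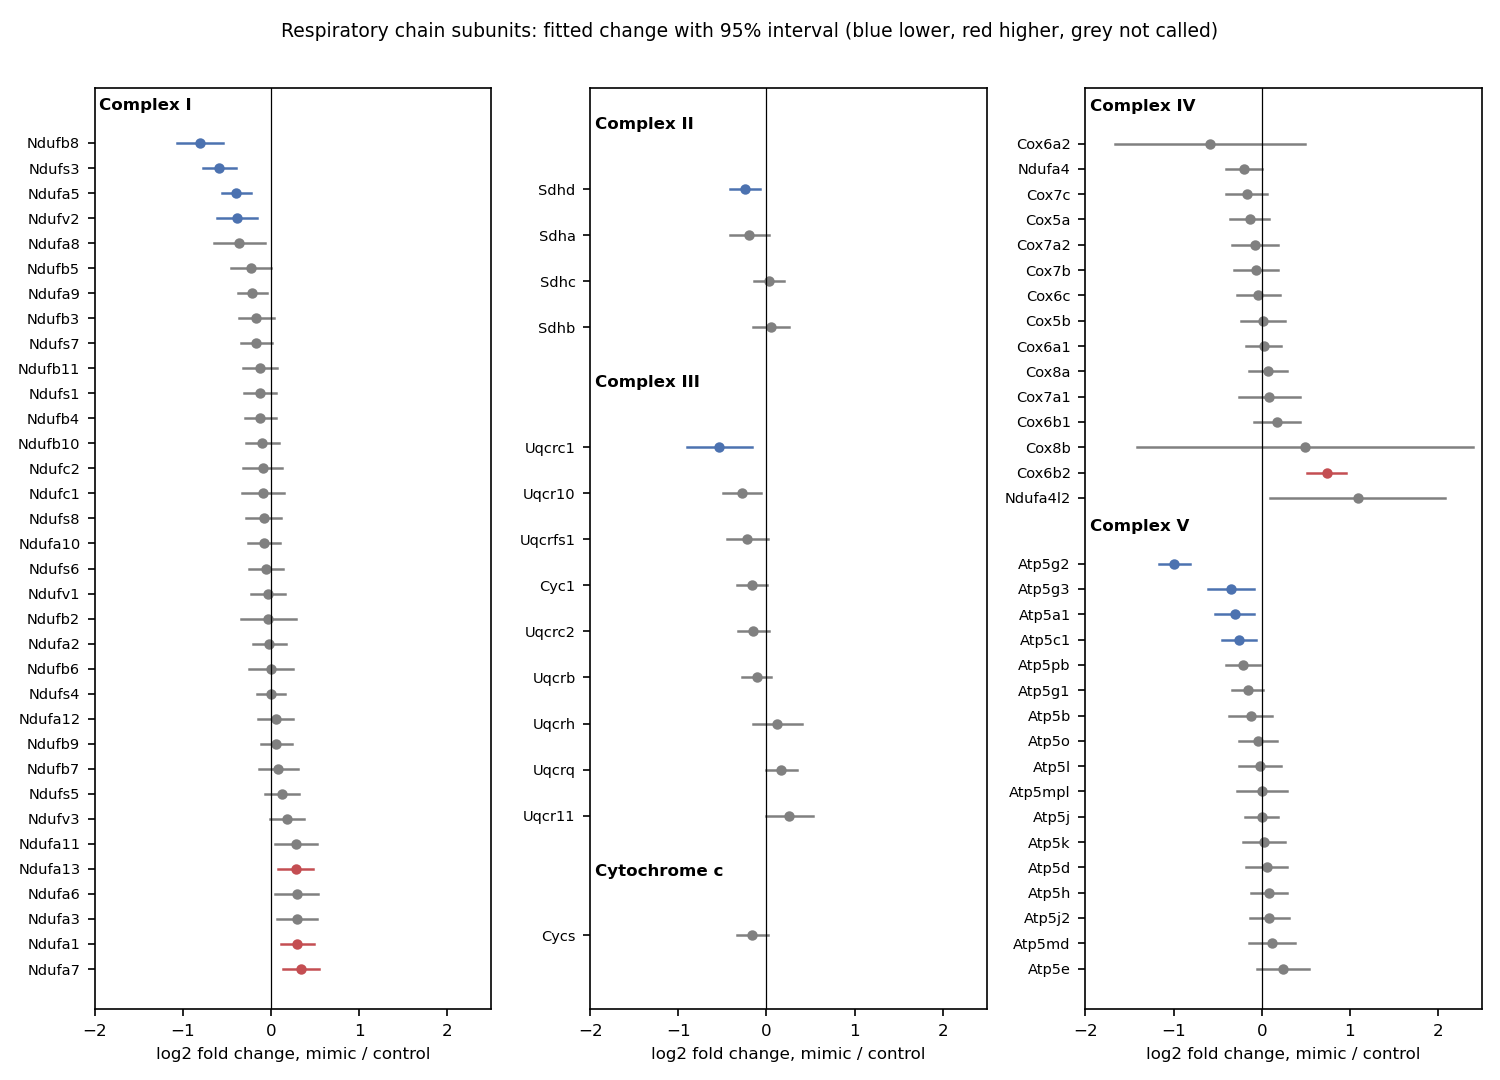
Fitted log2 fold change of the tested subunits but 1, mimic over control, each with its 95% interval, ordered within each complex (blue called lower, red called higher, grey not called). Most points lie near 0, while Atp5g2 (-0.99), Ndufb8 (-0.80), Ndufs3 (-0.59) and Cox6b2 (0.74) stand away from it with intervals that leave out 0, and Cox8b, Cox6a2 and Ndufa4l2 have wide intervals.

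The median difference from the control mean was computed over all 81 subunits on each array. It was 0.05, 0.10, -0.01 and -0.10 on the control arrays and -0.15, 0.06, -0.05 and -0.02 on the mimic arrays. The groups overlapped, with means of 0.01 ± 0.09 (SD, n = 4) in control and -0.04 ± 0.09 (SD, n = 4) in mimic samples. For complex III the same median was -0.00 ± 0.08 (SD, n = 4) in control and -0.12 ± 0.02 (SD, n = 4) in mimic samples. There too the groups overlapped, since control sample 8, at -0.11, lay below mimic samples 4, 5 and 7.

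**Figure D2:**
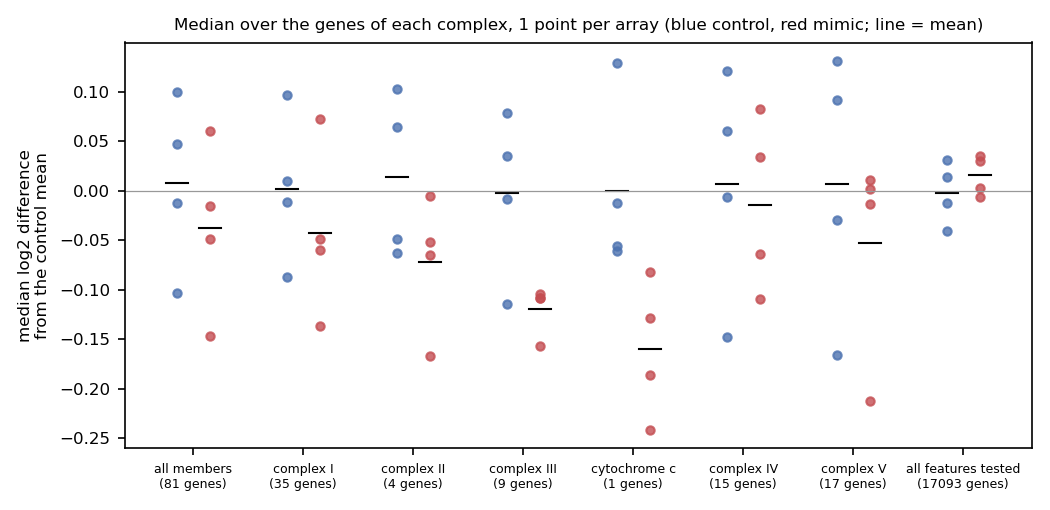
Median over the tested genes of each complex of the log2 difference from the control mean, with 1 point per array (blue control, red mimic) and a line at each group's mean. Over all members the control arrays span -0.10 to 0.10 and the mimic arrays -0.15 to 0.06, and the ranges overlap.

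In complex I, 4 of 35 tested subunits fell and 3 rose. Of the 7 core subunits, which carry the flavin, the iron-sulphur clusters and the quinone site and are shared with bacteria, Ndufs3 and Ndufv2 fell. Ndufs3, a core protein of the arm that projects into the matrix, read 5.54, 5.52, 5.47 and 5.38 in control and 4.81, 4.88, 5.05 and 4.82 in mimic samples. Every mimic sample lay below every control sample. Its mean went from 5.48 ± 0.07 to 4.89 ± 0.11 (SD, n = 4 each), a log2 change of -0.59 (SE 0.08, limma adjusted p = 0.00112), or 0.666 of the control signal. Within the slide rows the change was -0.69 (row 1) and -0.49 (row 2), and the second did not pass alone (limma adjusted p = 0.110).

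Ndufv2, which binds an iron-sulphur cluster at the NADH end of the complex, read 5.22, 5.03, 5.02 and 4.93 in control and 4.50, 4.66, 4.84 and 4.66 in mimic samples, again without overlap. Its log2 change was -0.38 (SE 0.10, limma adjusted p = 0.0184). The other core subunits were not called: the change was -0.12 for the iron-sulphur protein Ndufs1 and -0.04 for the flavin-binding Ndufv1. It was -0.17 for Ndufs7 and -0.09 for Ndufs8, both of which hold iron-sulphur clusters near the quinone site. The median over the 7 core subunits was -0.12.

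Of the 28 accessory subunits of complex I, which surround the core, 2 fell and 3 rose. Ndufb8, a membrane arm subunit, read 6.07, 6.26, 6.05 and 5.98 in control and 5.09, 5.29, 5.55 and 5.23 in mimic samples. The groups lay apart, and mimic sample 5 was the highest of its group. The log2 change was -0.80 (SE 0.11, limma adjusted p = 0.00113), from 6.09 ± 0.12 to 5.29 ± 0.19 (SD, n = 4 each), which left 0.574 of the control signal. It was -0.98 in row 1 and -0.62 in row 2, where it did not pass alone (limma adjusted p = 0.0886).

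Ndufa5, an accessory subunit of the matrix arm, read 6.09, 5.98, 6.02 and 5.92 in control and 5.56, 5.67, 5.58 and 5.62 in mimic samples. The log2 change was -0.39 (SE 0.07, limma adjusted p = 0.00389), and the groups did not overlap. Its second probe gave -0.29.

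The accessory subunits that rose had log2 changes of 0.28 to 0.34. Ndufa7 read 6.38, 6.48, 6.41 and 6.40 in control and 6.66, 6.92, 6.61 and 6.84 in mimic samples (log2 change 0.34, SE 0.09, limma adjusted p = 0.0193). Ndufa1, an X-linked membrane arm subunit needed for assembly, read 5.70, 5.70, 5.61 and 5.56 in control and 5.81, 6.04, 5.90 and 6.03 in mimic samples (log2 change 0.30, SE 0.08, limma adjusted p = 0.0248). In both genes every mimic sample lay above every control sample. Ndufa13, also known as GRIM-19, rose by 0.28 (SE 0.09, limma adjusted p = 0.0369), from 7.48 ± 0.07 to 7.77 ± 0.13 (SD, n = 4 each). None of these 3 passed with the slide column as a block (limma adjusted p of 0.0607 for Ndufa7, 0.0857 for Ndufa1 and 0.121 for Ndufa13).

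Several complex I subunits lay just outside the threshold. Ndufa3 (0.30, limma adjusted p = 0.0503) and Ndufa9 (-0.21, limma adjusted p = 0.0512) had groups that did not overlap. Ndufa8 (-0.36), Ndufa6 (0.29) and Ndufa11 (0.28) had limma adjusted p-values of 0.0553, 0.0646 and 0.0717, and their groups overlapped. Just inside it were Atp5g3 (limma adjusted p = 0.0452) and Atp5c1 (limma adjusted p = 0.0415), described with complex V.

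Complex II, succinate dehydrogenase, is also a citric acid cycle enzyme, and 1 of its 4 subunits fell (25.0%, beside 18.3% of all features). Sdhd, a membrane anchor, read 5.05, 5.17, 4.99 and 4.97 in control and 4.81, 4.86, 4.83 and 4.73 in mimic samples. Every mimic sample was below every control sample, and the log2 change was -0.24 (SE 0.08, limma adjusted p = 0.0394, and 0.142 with the slide column as a block). The flavoprotein gene Sdha read 4.62, 4.52, 4.34 and 4.43 in control and 4.37, 4.25, 4.39 and 4.12 in mimic samples (-0.19, limma adjusted p = 0.156), with overlapping groups.

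The iron-sulphur subunit gene Sdhb read 6.32, 6.30, 6.15 and 6.01 in control and 6.19, 6.32, 6.27 and 6.20 in mimic samples (0.05, limma adjusted p = 0.684). Sdhc, the other anchor, read 4.56, 4.75, 4.69 and 4.60 in control and 4.65, 4.71, 4.72 and 4.63 in mimic samples (0.03, limma adjusted p = 0.787). In both genes the groups overlapped. A second Sdhc probe gave -0.06.

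In complex III, 1 of 9 tested subunits fell (11.1%, beside 18.3% of all features). Uqcrc1, a large core protein on the matrix side, read 4.26, 4.62, 4.32 and 4.03 in control and 3.42, 4.04, 3.90 and 3.74 in mimic samples. The groups overlapped, since mimic sample 4 lay just above control sample 8. The log2 change was -0.53 (SE 0.16, limma adjusted p = 0.0344, and 0.0866 with the slide column as a block). The other core protein gene, Uqcrc2, was at -0.15 and was not called, and neither were the electron-carrying Uqcrfs1, the Rieske protein (-0.21), and Cyc1 (-0.16). Among the small subunits Uqcr10 was at -0.27 (limma adjusted p = 0.0550) and Uqcr11 at 0.26, both uncalled.

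Cytochrome c, the mobile carrier between complexes III and IV that also activates caspases once released, was not called. Cycs read 6.19, 6.33, 6.15 and 6.14 in control and 5.96, 6.12, 6.02 and 6.08 in mimic samples. The mimic samples all lay below the control samples, with a log2 change of -0.16 (SE 0.08, limma adjusted p = 0.150). A second, dimmer Cycs probe gave 0.08.

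Complex IV, cytochrome c oxidase, was represented by 15 tested nuclear subunits, including Ndufa4, which was named for complex I and is now known as a complex IV subunit. None of the 9 subunits with a common isoform or a single form was called by limma, and 0 of them had an unadjusted p under 0.05. Their log2 changes ran from -0.17 (Cox7c) to 0.17 (Cox6b1). The median over all 15 was 0.02.

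The called member of complex IV was Cox6b2, an isoform described chiefly in testis. It read -0.18, -0.02, -0.22 and -0.43 in control and 0.45, 0.58, 0.59 and 0.49 in mimic samples, and was above background on every array. The groups did not overlap, and the log2 change was 0.74 (SE 0.10, limma adjusted p = 0.000805), or 1.67-fold. It was 0.61 in row 1 (limma adjusted p = 0.0661) and 0.86 in row 2. With normexp background correction the log2 change was 0.47.

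Its common counterpart Cox6b1 read 3.75, 3.97, 3.70 and 3.56 in control and 3.69, 3.99, 3.96 and 4.03 in mimic samples (0.17, limma adjusted p = 0.276), and the groups overlapped. The difference between the log2 changes of Cox6b2 and Cox6b1 was 0.56 (SE 0.06). In a two-sided exact permutation test over the 70 assignments of samples to groups its p was 0.0286, the smallest that 4 against 4 allows. After adjustment over the 8 pairs of paralogs compared, p was 0.0762 by this exact test, so a pair at the smallest p could not pass the threshold by itself.

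The heart and skeletal muscle isoforms varied between the arrays within each group. Cox6a2 read 2.41, 1.34, 2.38 and 3.05 in control and 2.45, 1.93, 0.46 and 2.00 in mimic samples (-0.58, SE 0.47, limma adjusted p = 0.375). Cox7a1 read 0.36, 0.50, 0.47 and -0.04 in control and 0.19, 0.62, 0.26 and 0.57 in mimic samples (0.09, limma adjusted p = 0.696). Cox8b, also a brown fat transcript, read -0.33, -2.42, -0.10 and -1.07 in control and -0.61, 0.61, -2.83 and 0.87 in mimic samples (0.49, SE 0.83, limma adjusted p = 0.684). The groups overlapped for all of these, and the lowest Cox8b and Cox6a2 values were those of control sample 3 and mimic sample 5.

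The common counterparts varied less. Cox6a1 read 8.89, 9.03, 8.89 and 8.78 in control and 8.79, 8.98, 8.96 and 8.95 in mimic samples (0.02, limma adjusted p = 0.875). Cox7a2 read 5.65, 5.58, 5.35 and 5.30 in control and 5.19, 5.55, 5.40 and 5.43 in mimic samples (-0.08, limma adjusted p = 0.636). Cox8a read 7.76, 8.03, 7.86 and 7.70 in control and 7.78, 7.98, 7.92 and 7.95 in mimic samples (0.07, limma adjusted p = 0.584). For each of these the groups overlapped. Within the pairs the change differed by -0.60 for Cox6a2 against Cox6a1, 0.16 for Cox7a1 against Cox7a2 and 0.42 for Cox8b against Cox8a, with two-sided exact permutation p-values of 0.429, 0.229 and 0.629.

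Muscle and fat markers also varied between arrays. Of 12 skeletal muscle markers 7 were tested, with summed signals of 48.4 to 78.4 in control and 46.3 to 80.8 in mimic samples, and Myf5, Pax7, Ckm and Mylpf were not above background on any array. Without Acta1, a skeletal actin gene that carried most of this sum where it was high, the sums were 5.08 to 33.5 and 3.57 to 31.3. Tnnc2, a fast muscle troponin, read 3.45, 0.78, 3.63 and 2.79 in control and 3.05, 3.61, 0.21 and 4.03 in mimic samples. Within each group Tnnc2, Tnnt3, Myh3, Myh8 and Des were lowest in control sample 3 and mimic sample 5, Myog was lowest in control sample 3 and mimic sample 2, and Acta1 was highest in control sample 3 and mimic sample 5 (6.14 and 6.10). Of 8 adipocyte markers 5 were tested, with summed signals of 7.50 to 20.9 and 6.15 to 20.3, and Ucp1 and Lep were not above background on any array. Fabp4, a fatty acid carrier of adipocytes, read 3.27, 1.59, 3.03 and 1.71 in control and 1.83, 3.29, 1.34 and 3.51 in mimic samples. Its lowest control was sample 3, with sample 8 close to it. For Adipoq (-2.60, against -1.85 in sample 3) and Cidec (-3.55, against -2.54) the lowest control was sample 8. Plin1 (-3.62) and Pparg (1.91) were lowest in control sample 3, and Plin1 was close in sample 8 (-3.50). Among mimic samples all of these were lowest in sample 5. The part of these cells in the isoform values was not tested.

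**Figure D3:**
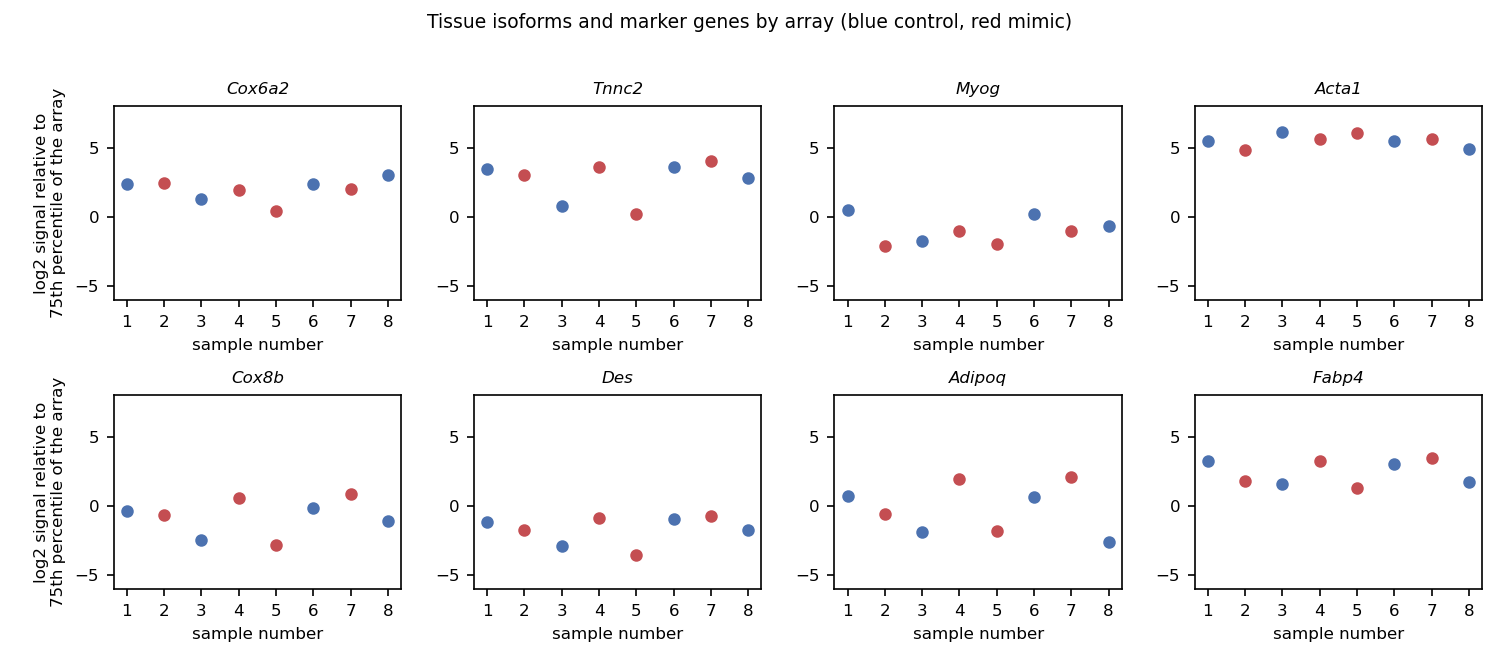
Log2 signal relative to the array's 75th percentile for Cox6a2 and Cox8b beside muscle (Tnnc2, Myog, Acta1, Des) and adipocyte (Adipoq, Fabp4) markers, by sample number (blue control, red mimic). Cox8b and Fabp4 are low in control sample 3 (-2.42 and 1.59) and mimic sample 5 (-2.83 and 1.34), while Acta1 is high in both (6.14 and 6.10). Adipoq is lowest in control sample 8 (-2.60).

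Ndufa4 read 5.07, 4.95, 4.94 and 4.79 in control and 4.59, 4.80, 4.84 and 4.72 in mimic samples (-0.20, limma adjusted p = 0.122), with overlapping groups. Its paralog Ndufa4l2, known as a hypoxia-induced gene, read -1.87, -2.77, -2.55 and -2.02 in control and -0.27, -0.75, -2.44 and -1.39 in mimic samples. It was above background on only 1 control and 3 mimic arrays, and its log2 change of 1.09 (SE 0.44) was not called (limma adjusted p = 0.0861). Mimic sample 5 lay among the controls.

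In complex V, 4 of 17 tested subunits fell: c ring genes Atp5g2 and Atp5g3, and Atp5a1 and Atp5c1 of the catalytic head. None was called higher, and these 23.5% called lower stand beside 18.3% of all features called lower. Atp5g2 fell by more than any other called subunit. It read 7.90, 7.92, 7.84 and 7.78 in control and 6.92, 6.89, 6.90 and 6.75 in mimic samples. No mimic sample came near the control range. The mean went from 7.86 ± 0.06 to 6.87 ± 0.08 (SD, n = 4 each), a log2 change of -0.99 (SE 0.08, 95% interval -1.17 to -0.82, limma adjusted p = 5.03e-05), which left 0.503 of the control signal. A second probe gave -0.95, and the change was -1.0 in row 1 and -0.98 in row 2.

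Atp5g1, Atp5g2 and Atp5g3 encode the same mature c subunit behind different import peptides, so their transcripts are alternative sources of a single protein. Atp5g1 read 6.74, 6.83, 6.69 and 6.65 in control and 6.49, 6.60, 6.65 and 6.53 in mimic samples (-0.16, SE 0.08, limma adjusted p = 0.149). The groups overlapped narrowly, mimic sample 5 and control sample 8 both reading 6.65. Atp5g3 read 7.12, 7.00, 6.83 and 6.76 in control and 6.49, 6.49, 6.82 and 6.52 in mimic samples (-0.35, SE 0.11, limma adjusted p = 0.0452), and mimic sample 5 lay within the control range. In the slide rows the Atp5g3 change was -0.57 and -0.13.

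The change of Atp5g2 differed from that of Atp5g1 by -0.83 (SE 0.05) and from that of Atp5g3 by -0.64 (SE 0.10). Both differences had a two-sided exact permutation p of 0.0286 and an adjusted p of 0.0762 over the 8 pairs. Atp5g3 and Atp5g1 differed by -0.19 (two-sided exact permutation p = 0.0857).

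The promoter of each c ring paralog is shown, 250 bases before to 50 bases after the RefSeq start. Sequences run 5′ to 3′ on the gene's strand, GRCm38.p6, all on minus strands. The part of these promoters in the unlike fitted changes was not tested. Capitals mark matches to GCGCATGCG, a binding motif of the factor Nrf1, searched on both strands; in Atp5g2 a match on each strand overlaps the other.
Atp5g2 (chr15:102670998-102671297): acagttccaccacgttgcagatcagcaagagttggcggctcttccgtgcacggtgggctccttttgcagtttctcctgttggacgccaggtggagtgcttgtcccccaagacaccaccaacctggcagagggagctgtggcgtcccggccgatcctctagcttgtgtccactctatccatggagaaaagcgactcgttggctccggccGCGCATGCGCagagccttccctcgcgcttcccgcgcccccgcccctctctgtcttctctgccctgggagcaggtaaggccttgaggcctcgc
Atp5g1 (chr11:96075582-96075881): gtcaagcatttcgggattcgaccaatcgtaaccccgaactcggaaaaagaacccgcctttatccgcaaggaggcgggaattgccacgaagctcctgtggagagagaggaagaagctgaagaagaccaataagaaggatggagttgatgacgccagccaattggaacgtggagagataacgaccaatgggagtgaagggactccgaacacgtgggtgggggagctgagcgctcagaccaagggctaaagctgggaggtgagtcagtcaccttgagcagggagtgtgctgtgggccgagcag
Atp5g3 (chr2:73911277-73911576): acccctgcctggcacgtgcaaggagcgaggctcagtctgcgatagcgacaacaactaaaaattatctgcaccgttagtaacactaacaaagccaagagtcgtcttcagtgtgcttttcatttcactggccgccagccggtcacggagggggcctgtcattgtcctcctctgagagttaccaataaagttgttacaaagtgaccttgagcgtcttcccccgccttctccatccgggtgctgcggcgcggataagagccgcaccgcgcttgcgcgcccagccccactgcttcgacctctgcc
The first base of these matches lies 42 bases before the start, and neither of the other windows holds these letters. A match is a description of the sequence and not a bound site.

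RefSeq windows of this kind were at hand for 68 of the 83 subunits with a probe, 67 of them tested. The Nrf1 motif occurred in 9 of the 67 (13.4%), against 1.95% of 27025 genes with a window. Among called subunits it occurred in Atp5g2 and Uqcrc1. The ETS motif CCGGAAG, bound by factors such as Gabpa and searched on both strands, occurred in 17 of the 67 (25.4%, against 9.93% of genes), among them the called Ndufs3 and Sdhd. The Yy1 motif AAGATGGCG, on either strand, occurred in 7 (10.4%, against 1.64% of genes), none of which was called. By call, the Nrf1 motif occurred in 2 of 9 subunits called lower (22.2%) and in 7 of 54 not called (13%). The ETS motif occurred in 2 of 9 (22.2%) and in 15 of 54 (27.8%). No window of the 4 subunits that rose held any of these letters, but 4 genes are too few to set their share apart.

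In the catalytic head, Atp5a1, the alpha subunit, read 6.42, 6.24, 6.12 and 6.05 in control and 5.86, 5.92, 5.98 and 5.83 in mimic samples (-0.31, SE 0.10, limma adjusted p = 0.0378). Atp5c1, the gamma subunit of the rotating shaft, read 6.50, 6.56, 6.36 and 6.36 in control and 6.10, 6.28, 6.22 and 6.15 in mimic samples (-0.26, SE 0.08, limma adjusted p = 0.0415). In both genes every mimic sample lay below every control sample, and neither passed with the slide column as a block (limma adjusted p of 0.0821 for Atp5a1 and 0.120 for Atp5c1). The beta subunit gene Atp5b was at -0.13 and was not called. None of the 4 stalk subunits and none of the 5 small membrane subunits was called by limma, with 1 stalk subunit at an unadjusted p under 0.05 (Atp5pb, -0.21, adjusted p = 0.0814) and 0 small membrane subunits.

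**Figure D4:**
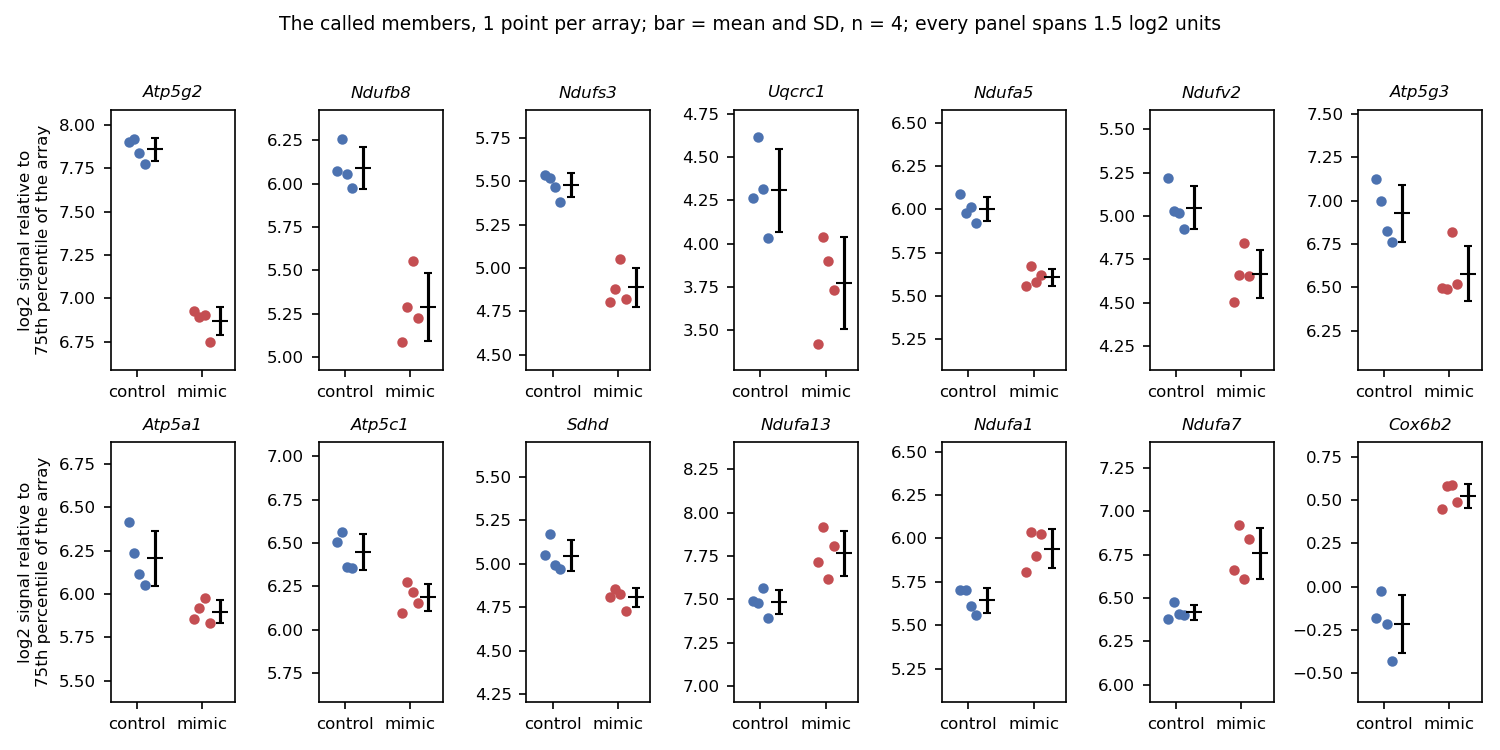
Log2 signal relative to the array's 75th percentile of the 14 called subunits, with 1 point per array and the mean and SD of each group (n = 4), every panel spanning 1.5 log2 units. The groups are farthest apart in Atp5g2 (7.86 against 6.87), and they overlap in Uqcrc1 and Atp5g3.

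All 14 called subunits had the same sign of change in both slide rows. With the row as a block 13 of the 14 passed, and with the slide column as a block, where each column holds 1 array of each group, 7 passed: Ndufb8, Ndufs3, Ndufa5, Ndufv2, Cox6b2, Atp5g2 and Atp5g3. Only 3 passed within row 1 alone and 2 within row 2 alone, where each group has 2 arrays. Atp5g2 passed in each of these fits. Over all 23 alternatives Ndufb8, Ndufs3 and Cox6b2 each kept their call in 22, while Atp5g3, Atp5a1, Atp5c1, Sdhd and Ndufa13 each lost it in 12 or more. Leaving out single arrays moved the counts: 5 subunits were called lower without control sample 1, 3 or 6 or without mimic sample 2 or 7, and 6 without mimic sample 4. As few as 1 was called higher without mimic sample 4 or 7, and 2 without control sample 6 or 8.

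Several probes were present for 22 of the subunits, and in 3 of these (Cycs, Ndufb6 and Sdhc) the probes had both signs. Ndufv3, a complex I subunit with long and short protein forms, differed most between probes that carry the same transcript accession: the brighter gave 0.18 and the dimmer 0.79 (limma adjusted p = 0.00233 over probes). The dimmer probes of Ndufb5 (-0.35, limma adjusted p = 0.00825) and Ndufb11 (-0.32, limma adjusted p = 0.0414) also passed, where the brighter probes, at -0.23 and -0.13, did not.

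Around the subunits, other nuclear genes of the same pathway were called in both directions. Of 4 subunits with other names, Ndufab1, the mitochondrial acyl carrier protein held in complex I, fell (-0.32, SE 0.07, limma adjusted p = 0.00839), and Cox4i1, the common form of a large complex IV subunit, was at 0.20 without being called. Of 19 complex I assembly factors 5 fell, with Ndufaf7 (-0.37), Ndufaf6 (-0.43) and Ecsit (-0.42) the first by p, and Ndufaf3 rose (0.54). Of 9 assembly factors of complexes II and III, Bcs1l, which inserts the Rieske protein, fell (-0.52) and so did Ttc19 (-0.68). Of 3 for complex V, 2 fell: Fmc1 (-0.84, SE 0.06, limma adjusted p = 5.18e-05) and Atpaf2 (-0.31). Complex IV assembly factors were called in both directions, 6 of 24 higher (Coa5 0.52, Cox18 0.57, Surf1 0.48) and 3 lower (Cmc2 -0.71, Coa7 -0.73, Cox20 -0.83). The share called in either direction was 25.0%, 31.6%, 22.2%, 66.7% and 37.5% of these lists in turn, beside 34.2% of all features. By direction, 18.3% of all features were called lower and 15.9% higher. These lists, like those that follow, are described by their counts and were not tested as sets.

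Of 17 transcriptional regulators of respiratory genes, 3 fell and 3 rose (35.3%, close to the 34.2% of all features). Nrf1, a factor for many respiratory promoters, read 1.65, 1.32, 1.38 and 1.52 in control and 1.09, 0.95, 1.1 and 0.93 in mimic samples (-0.45, SE 0.10, limma adjusted p = 0.00761). Esrra, an orphan nuclear receptor that works with PGC-1 coactivators, read 3.10, 3.28, 2.97 and 2.90 in control and 3.53, 3.64, 3.61 and 3.62 in mimic samples (0.54, limma adjusted p = 0.00354). Neither gene's groups overlapped. The mitochondrial DNA polymerase gene Polg (-0.44) and Tfam (-0.40), which packages that DNA and helps start its transcription, also fell. Ppara (0.33) and Ppard (0.46) rose. The coactivator genes Ppargc1a and Ppargc1b were not above background on any array.

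Among enzymes that feed the chain, 4 of 13 citric acid cycle genes fell, including Fh1 (-0.64) and citrate synthase, Cs (-0.51). Of 11 coenzyme Q synthesis genes 5 fell and 1 rose (Coq10a, 0.36). Coq2, which joins the tail to the quinone ring, fell by 1.16 on the log2 scale (SE 0.10, limma adjusted p = 9.21e-05), Pdss1, of the tail-making enzyme, by 0.70 and Coq7 by 0.42. Of 10 carriers of the mitochondrial membranes 3 fell: Vdac1 (-0.42), Mpc1 (-0.39) and the ATP/ADP exchanger Slc25a4 (-0.42). Of 21 import genes 4 fell, among them Timm8a1 (-0.55), the chaperonin Hspd1 (-0.54) and Timm23 (-0.41), and Timm8b rose (0.48). Of 77 mitochondrial ribosome proteins 19 fell, led by Mrpl12 (-0.84), Mrps15 (-0.69) and Mrpl42 (-0.56), and 2 rose (Mrpl39, 0.29, and Mrpl10, 0.30). Over all features 34.2% were called, 18.3% lower and 15.9% higher. The share called in either direction was 27.3% of ribosome proteins, 23.8% of import genes and 30.0% of carriers. It was 30.8% of citric acid cycle genes and 54.5% of coenzyme Q synthesis genes. No carrier and no citric acid cycle gene was called higher, and most calls in the other lists here were lower.

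**Figure D5:**
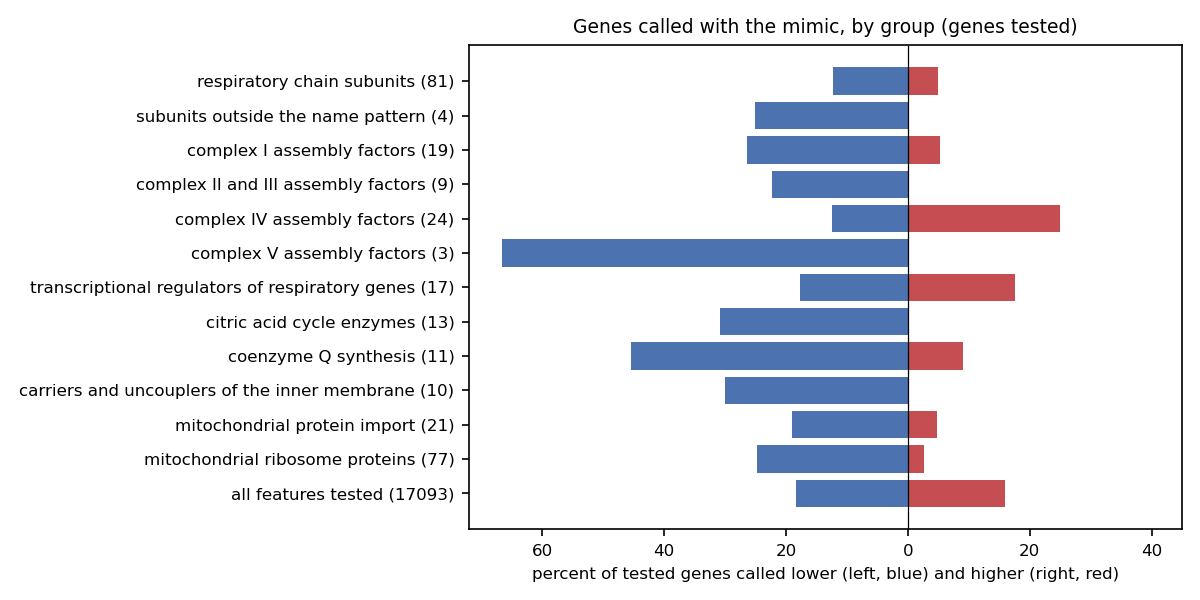
Percent of tested genes called lower (left, blue) and higher (right, red) with the mimic, for the subunits, for the other lists of the pathway and for all 17093 features, with the number of genes tested in parentheses. The subunits have 10 of 81 lower and 4 of 81 higher, and the lists of 3 or 4 genes rest on few genes.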

How the data were processed

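Total RNA of 8 samples was read on 1-colour arrays of a slide with 62976 spots per array, 3671 of them controls. The deposited intensity values per spot are the processed signals of Agilent Feature Extraction 11.5.1.1, background-subtracted, per the file headers, and not scaled between arrays. Log2 values in the deposited value table equal log2 of these signals minus a constant per array (SD of the offset at most 2.78e-07). Its column medians were -3.78 to -3.60. It has no gene centring and was used as an alternative. GeneSpring 14.9.1 is named in the study's design text, its further use being not given in the sources.

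Control and outlier spots were left out, spots of a probe were averaged (55681 probes), and each array's 75th percentile was subtracted from the log2 signal. Probe accessions matched a RefSeq table (GRCm38.p6) for 28331 probes (21368 symbols). Probes well above background on at least 4 of 8 arrays were kept. The 4 against 4 comparison used limma 3.58.1 under R 4.3.3 (lmFit, eBayes, two-sided, Benjamini-Hochberg over 17093 features, threshold 0.05), and the scripts were tested on simulated data. Pairs of paralogs were compared with exact permutation tests. The number of arrays limits the precision. Symbols without a matched probe were the protein-coding Ndufb1, Ndufb4b and Ndufb4c. The others, Cox6c2, Ndufa11b, Ndufa12-ps, Ndufs5-ps and Ndufs6b, are annotated as pseudogenes.

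Array values are printed for the called subunits with the smallest p in each direction within each complex, called core subunits, complex II, cytochrome c, tissue isoforms with their counterparts and the c ring; further called subunits were added after their values were seen. Other lists name up to 3 genes per direction. Values of 1 subunit and 1 further gene are not reported here. Members, lists and pairs were chosen with earlier results of these data known. Alternatives were normexp correction (offset 50, on median signals, chosen after seeing the files), other scalings, filters and probe rules, slide row or column as a block or rows alone, other variance models, and leaving out each sample.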

Additional observations from a re-analysis of the deposited data

Results flagged for a closer look

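Of 162 combinations of a subunit and a group, 5 had a sample far from the other 3, with a gap to the nearest sample beyond Dixon's 95% critical value for 4 samples. Chance flags about 1 in 20 groups. All 5 were mimic samples. Mimic sample 5 was high for Atp5g3, at 6.82 against 6.52 for the nearest sample (gap 0.899 of the range), and for Ndufa8, at 3.19 against 2.83 (0.844). Mimic sample 2 was low for Ndufa6, at 4.25 against 4.60 (0.885), for Cox6c, at 5.86 against 6.14 (0.859), and for Cox6a1, at 8.79 against 8.95 (0.834).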

How the results depend on the processing

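No called member changed direction in any of the 23 alternatives, and the median over members was negative in 23 of the 24 fits. The sample numbers 1 to 8 are unique, so no number pairs samples across the groups; the slide column, used as a block, pairs arrays by position. The members called higher, 4 in the fit reported, numbered 2 with arrays centred on the median, 1 without scaling, without a filter, with the column as a block and in row 1 or row 2 alone, 7 with an intensity trend and robust spread and 9 with array weights; leaving out single samples gave 1 to 5. The members called lower numbered 6 with median centring, without scaling and with the column block, 4 without a filter, 3 in row 1 and 1 in row 2, and leaving out single samples gave 5 to 9. Over all features 3805 were called without scaling, 3657 without a filter, 1759 in row 1 and 1611 in row 2, against 5851, and leaving out single samples gave 4320 to 5789. The median over members was -0.15 without scaling and -0.14 in row 1 (-0.09 to -0.00 leaving out single samples), where the median over all features was -0.08 without scaling. Without scaling the medians were -0.16 for complex I, -0.19 for complex II and -0.25 for complex III; complex III was at -0.043 in row 2 and complex V at -0.17 in row 1. Leaving out single samples gave -0.09 to -0.04 for complex I, -0.11 to -0.05 for II, -0.17 to -0.12 for III, -0.07 to 0.04 for IV and -0.09 to 0.04 for V. Rows alone have fewer samples; the cause of the other moves was not tested. Atp5g2 passed in all 23 alternatives, Ndufb8 and Ndufs3 in all but row 2 and Cox6b2 in all but row 1, while Atp5c1 was not called in 15, Ndufa13 and Sdhd in 14, Atp5g3 in 13, Atp5a1 in 12, Ndufa1 in 10, Uqcrc1 in 9, Ndufa7 in 7, Ndufv2 in 3 and Ndufa5 in 2. Of the 67 uncalled members 13 passed in at least 1 alternative. In all 24 fits the share of members called lay below that of all features (2.47% to 25.9% against 9.42% to 41.4%).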

Other observations

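Atpif1 and Dmac2l are in none of the lists and were looked at after the other values were seen. Atpif1, the inhibitor that stops ATP synthase from running backwards, was at -0.23 (SE 0.09, limma adjusted p = 0.0705) and was not called. Dmac2l, formerly named Atp5s, was at -0.24 (SE 0.13, limma adjusted p = 0.20) and was not called.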
